A study of Mus musculus with 74 samples.

Results

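The late transcriptional response to transforming growth factor β (TGF-β) was examined in S2KO, a mouse line that by its name lacks Smad2. Its members were 12 of the 74 dual-channel arrays of the series, picked by their titles: 3 arrays at 2 h and 3 at 4 h, called late, and 3 arrays at 0 h and 3 at 0.3 h, called early. On the 0.3, 2 and 4 h arrays, channel 1 held total RNA of S2KO cells without TGF-β for that time and channel 2 RNA of S2KO cells with it. On the 0 h arrays both channels held untreated RNA, so these were self-hybridisations. S2WT and S3KO, by their names the wild-type counterpart and a Smad3 knockout, were by their titles sampled at the same times and served for comparison. So did S3WT and S2WT cells with the MEK inhibitor U0126. Other labels leave the time of the S2WT 4 h arrays and the TGF-β treatment of the S3KO 0.3 h arrays in doubt, as given below. The labels state no cell type, allele, clone or TGF-β dose; the published work that this design matches used mouse embryo fibroblasts. A ratio of channels within a line gives no level of a gene, so neither a cell type nor the loss of Smad2 could be checked, and no probe carried the symbol Smad2 alone. The labels do not say whether the replicates came from separate cultures, so p-values measure the spread between these arrays, which may be technical.

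TGF-β binds a pair of serine/threonine kinase receptors, and the type I receptor phosphorylates Smad2 and Smad3. These join Smad4, enter the nucleus and regulate target genes, Smad3 and Smad4 by binding DNA directly and Smad2 mainly through partner proteins. The pathway is known for restraining proliferation of epithelial cells and for driving matrix production, cytoskeletal change and a burst of transcription factor genes in fibroblasts, and its targets include its own inhibitors.

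Each value is the log2 ratio of the channels, centred on the median of its array, and a change is the mean of the late groups minus the mean of the early groups, with the standard error (SE) of the limma fit. The ratio was read as TGF-β over no TGF-β, which is likely from the design and from the higher late values of known TGF-β-induced genes but is not stated. The 12 arrays gave values for 7846 to 8503 of the 8976 probes, and their medians as deposited ran from -0.44 to 0.04. Their spread, as a median absolute deviation, ran from 0.37 to 0.71 log2 units, and at each time replicate 1 was wide (0.63 to 0.71). Arrays of the same time correlated weakly, at 0.05 (0.3 h replicates 1 and 2) to 0.38 (4 h replicates 1 and 3). Pairs of an early and a late array covered a like range. They ran from -0.02 (0.3 h replicate 1 and 4 h replicate 3) to 0.35 (0.3 h replicate 2 and 4 h replicate 2). No pair of the 12 arrays correlated below -0.02. The number of arrays limits the precision.

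By limma fitted on all 74 arrays, with 1 spread per probe for every line, the late arrays differed from the early arrays for 139 of 8103 probes tested (1.72%) at an adjusted p under 0.05. Of these, 114 rose (1.41%), by 0.38 to 2.73 with a median of 0.95, and 25 fell (0.309%), by between -0.54 and -2.97 with a median of -1.03, while the median change over all probes tested was 0.01. Fitted on the 12 S2KO arrays alone, limma called 0 probes, with a smallest adjusted p of 0.146 and 610 probes at an unadjusted p under 0.05, among them 131 of the 139. Every late-response call below therefore rests on the spread shared with the other lines. The median residual SD of the 139 probes was 0.537 on the S2KO arrays and 0.373 over all arrays. Each SE printed below also uses the shared spread. For Hbegf it was 0.32, against 0.49 on the S2KO arrays alone, and for Gadd45b 0.28 against 0.27. When 1 array at a time was left out, the count was 59 for 4 h replicate 1 and 61 for replicate 3 of that time, 83 for 0 h replicate 2 and 288 for 4 h replicate 2, and lay between these for the others. All late arrays lay above all early arrays for 58 probes tested (0.716%) and below them for 41 (0.506%), including 28 of the 114 rises and 8 of the 25 falls.

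The response was not equally strong on the 6 late arrays. Averaged over the 114 called rises, the ratio was 1.02, 0.70 and 1.05 at 2 h and 1.22, 0.32 and 1.14 at 4 h in replicates 1, 2 and 3, against -0.39 to 0.00 on the early arrays. Over the 25 falls it was -1.24, -0.54 and -0.79 at 2 h and -1.08, -0.42 and -1.32 at 4 h, against 0.04 to 0.87 early. Since the probes were chosen on these arrays, this is a description: replicate 2 was the nearest to 0 at both late times. The late mean was farther from 0 than the early mean for 89 of 114 rises and 20 of 25 falls, against 55.2% of all probes tested. For the other 25 rises and 5 falls the early arrays lay farther from 0. Among named genes these were Wnt5a, Hspa4, Wwtr1, Gab2, Zfp672 and Papss2 among the rises, and Cnppd1, Vps52, Pecr and Traf3ip2 among the falls.

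**Figure D1:**
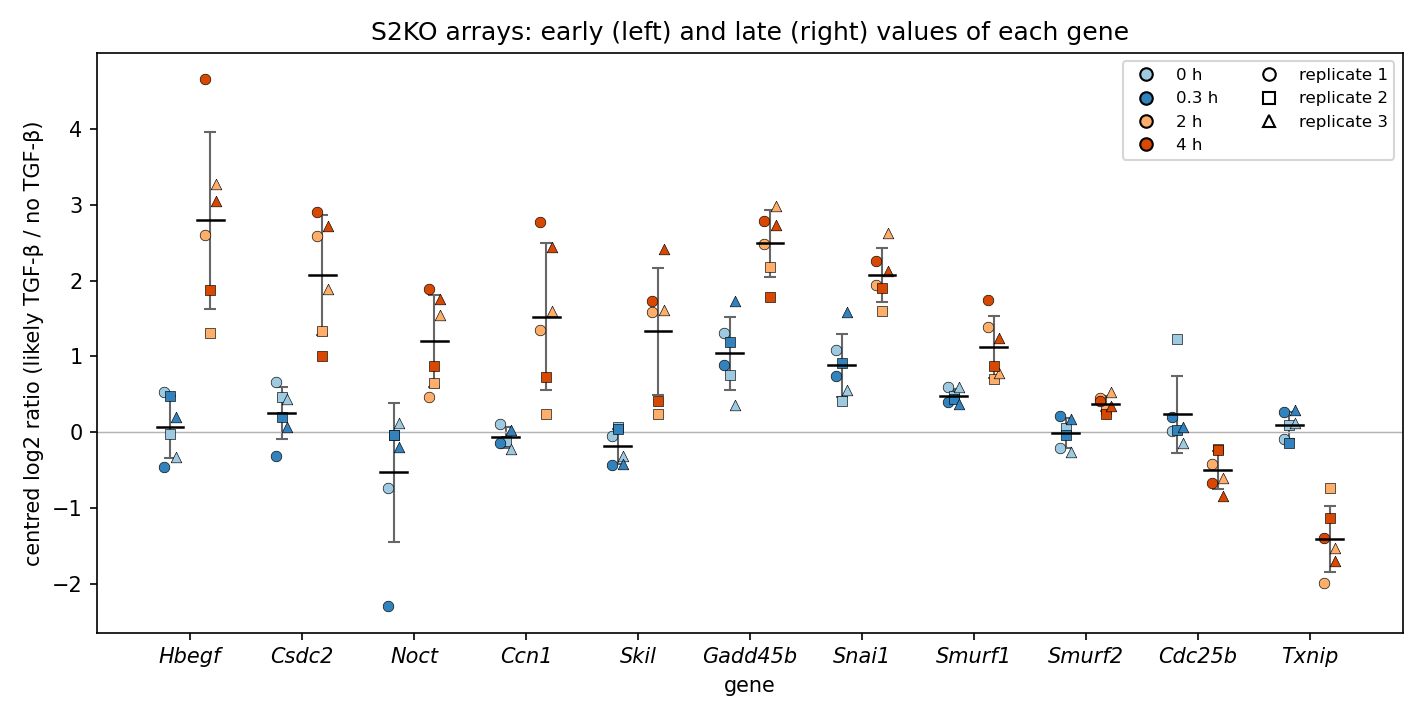
Centred log2 ratio (vertical axis) of 11 genes (horizontal axis) on each S2KO array, early arrays at the left and late arrays at the right of each gene. Colour gives the time, marker shape the replicate, bars the mean and whiskers the SD. The late values of each gene shown do not overlap its early values, and replicate 2 (squares) is low on the late side for Hbegf, Csdc2, Ccn1 and Skil.

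Promoters are given for a ubiquitin ligase of the pathway, a stress gene, a gene with a daily rhythm and the gene with the clearest fall, whose values follow. Each is the 250 bases before the start site in RefSeq (GRCm38.p6), 5′ to 3′ on the strand of the gene, with motif matches in capitals: Smurf1 at chr5:144965831-144966080 (minus strand), Gadd45b at chr10:80929841-80930090 (plus), Noct at chr3:51224197-51224446 (plus) and Txnip at chr3:96557707-96557956 (plus). The motifs searched on both strands were CAGAC, the core of the element bound by Smad3 and Smad4, its palindrome GTCTAGAC, the AP-1 motif TGANTCA and the E-box CACGTG. None of these motifs contains another.
Smurf1: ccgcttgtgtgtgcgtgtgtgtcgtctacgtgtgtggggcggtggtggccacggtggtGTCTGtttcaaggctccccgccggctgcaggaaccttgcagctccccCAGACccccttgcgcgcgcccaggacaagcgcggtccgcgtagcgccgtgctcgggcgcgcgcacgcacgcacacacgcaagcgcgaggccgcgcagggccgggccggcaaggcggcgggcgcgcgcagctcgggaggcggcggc
Gadd45b: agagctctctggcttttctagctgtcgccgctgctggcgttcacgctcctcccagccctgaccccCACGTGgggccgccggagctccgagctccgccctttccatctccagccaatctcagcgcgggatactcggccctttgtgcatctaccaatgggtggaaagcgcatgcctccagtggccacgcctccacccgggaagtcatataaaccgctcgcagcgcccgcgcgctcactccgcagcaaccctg
Noct: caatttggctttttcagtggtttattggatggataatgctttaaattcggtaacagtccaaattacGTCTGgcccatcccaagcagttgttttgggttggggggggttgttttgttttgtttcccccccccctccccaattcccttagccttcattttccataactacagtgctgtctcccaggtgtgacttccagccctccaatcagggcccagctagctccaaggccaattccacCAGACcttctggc
Txnip: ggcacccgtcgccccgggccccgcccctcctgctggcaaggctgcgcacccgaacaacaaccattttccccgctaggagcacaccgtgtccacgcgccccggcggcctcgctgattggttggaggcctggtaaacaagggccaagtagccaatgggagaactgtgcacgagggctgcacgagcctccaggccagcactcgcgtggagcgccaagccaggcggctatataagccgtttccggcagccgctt
Smurf1 and Noct each held CAGAC at 2 places, Gadd45b held 1 CACGTG and Txnip none of the 4 motifs. Of the 30 named genes that rose, 20 had promoter entries, with 28 start sites, and CAGAC was in 11 of those 28 windows (39.3%) against 42.2% of all 32851 promoters. In the 18 windows of the 14 named genes that fell and had entries, 8 held it (44.4%). CACGTG was in 3 of the 28 windows of genes that rose (10.7%) and 0 of 18 of genes that fell, against 6.02% of all, TGANTCA in 1 of each against 6.75%, and GTCTAGAC in none against 0.167%. Windows of 1 gene can overlap, and a match is a description of letters, not of binding.

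Among ligands and proteins that activate them, 7 probes of 5 genes were tested and 0 were called by limma, with a median change of 0.06. Of 8 probes of 6 receptor genes, 2 rose and none fell, against 1.41% rising and 0.309% falling over all probes tested, while the median was -0.33. Tgfbr1, the type I receptor itself, lay at -0.68 to 0.26 (median -0.54) on 5 early arrays and at 0.18 to 1.69 (median 1.07) on the 6 late arrays. The late values of replicate 2, both 0.18, fell below the highest early array, and the others were above it. The rise was 1.25 ± 0.25 (adjusted p = 0.00242). Against the 0 h arrays alone the Tgfbr1 change was 1.02 and was not called by limma (adjusted p = 0.0872). Acvr1, a type I receptor for BMPs and activins, rose by 0.59 ± 0.15 (adjusted p = 0.0281), from -0.07 to 0.32 on early arrays to 0.29 to 0.89 on 5 late arrays. That call was lost without any of 6 arrays (0 h and 0.3 h replicates 1 and 2, 4 h replicates 1 and 3), with an adjusted p of up to 0.106. The co-receptors moved the other way in value but did not pass: Tgfbr3 (betaglycan) changed by -0.42, -0.42 and -0.65 on its 3 probes and Eng (endoglin) by -0.65.

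Smads, their cofactors and their ubiquitin ligases were measured by 41 probes of 22 genes. Of these probes 4 rose and none fell, against 1.41% rising over all probes tested, with a median of 0.09. Skil, which encodes the Smad co-repressor SnoN, lay at -0.43 to 0.07 (median -0.18) on the early arrays and at 0.24 to 2.42 (median 1.60) on the late arrays. Replicate 2 gave the lowest late values, 0.24 at 2 h and 0.41 at 4 h, yet the groups did not overlap. Skil rose by 1.52 ± 0.21 (adjusted p = 2.65e-06). Both Smurf ligases, which target receptors and Smads for degradation, also rose without overlap. Smurf1 was tight on the early arrays, 0.38 to 0.60, and lay at 0.70 to 1.75 on the late ones, a rise of 0.64 ± 0.15 (adjusted p = 0.0102) that was lost without 4 h replicate 1 (adjusted p = 0.0825). Smurf2 moved from between -0.25 and 0.22 to between 0.24 and 0.53 on 1 probe, a rise of 0.38 ± 0.10 (adjusted p = 0.0276). Its other 2 probes gave 0.49 and 0.50 and did not pass, and the call was lost without any of 6 arrays (0 h replicates 1 and 3, 0.3 h replicate 2, 2 h replicate 3, 4 h replicates 1 and 3, adjusted p up to 0.091). Wwtr1, the gene of the coactivator TAZ, rose by 0.67 ± 0.14 (adjusted p = 0.00418), from -0.57 to -0.01 on early arrays to -0.19 to 0.95 on late arrays, which overlapped.

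Smad7, the inhibitory Smad, did not pass: 1.04 ± 0.85 on a noisy probe and 0.26 ± 0.20 on the other. Smad4, the common partner, changed by -0.48 ± 0.45 on its probe. The 3 probes of Smad3, the other receptor-activated Smad, gave changes that ran from -0.20 to -0.35, none called, but 1 of them differed between the late times. On it the 2 h arrays lay at 0.04, 0.35 and 0.10 and the 4 h arrays at -0.40, -0.55 and -0.77, so that 4 h was lower by -0.74 ± 0.16 (adjusted p = 0.0141, limma). That call was lost without 2 h replicate 2 or 4 h replicate 3 (adjusted p up to 0.125). The same 4 h minus 2 h step was -0.47 in S2WT, -0.62 in S3WT, -0.61 in the U0126 arrays and -0.04 in S3KO, with no call in any of them. The co-repressor genes Ski (0.12 to 0.48 on 3 probes) and Tgif1 (0.29 and 0.36) did not pass either.

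Genes known to be induced by TGF-β were chosen as a list with earlier results of these data known. Of its 24 probes 6 rose and none fell, 20 had a change above 0 and the median was 0.56, against 1.41% rising, 51.1% above 0 and a median of 0.01 over all probes. Since the direction of the ratio was read in part from such genes, the sign of this list is a description and no independent evidence. Hbegf, which encodes a ligand of the EGF receptor, lay at -0.46 to 0.53 (median 0.09) on its early arrays and on its late arrays at 1.31 to 4.65 (median 2.83), with no overlap. The rise was 2.73 ± 0.32 (adjusted p = 1.63e-07). The highest value was at 4 h in replicate 1 and the lowest at 2 h in replicate 2. Snai1, the repressor of epithelial genes, was above 0 on every early array, from 0.42 to 1.58, and lay at 1.59 to 2.62 on the late arrays. At 0 h, where both channels held untreated RNA, its mean was 0.68, so a value above 0 is not in itself a response. The highest early array and the lowest late array differed by little, and the rise was 1.19 ± 0.25 (adjusted p = 0.00453). Ccn1 (Cyr61), a matricellular protein gene, rose by 1.59 ± 0.41 (adjusted p = 0.0289), from -0.22 to 0.10 on 5 early arrays to 0.25 to 2.78 on the late arrays. Although the groups did not overlap, this call was lost without any of 6 arrays (0 h replicates 2 and 3, replicates 1 and 3 at 2 h and 4 h), with an adjusted p of up to 0.12. Rhob, a small GTPase gene of the cytoskeleton, rose by 1.46 ± 0.29 (adjusted p = 0.00236), from -0.25 to 0.92 to between 0.69 and 3.15, with overlap through replicate 2. Bhlhe40 and Klf10, transcriptional repressors of the same list, had changes of 0.73 ± 0.24 and 0.64 ± 0.22 and did not pass (adjusted p = 0.122 and 0.135).

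Immediate early and stress genes gave 4 rises and 1 fall among 19 probes, with a median of 0.62. Over all probes tested 1.41% rose and 0.309% fell. Gadd45b, a growth arrest and stress gene, lay at 0.36 to 1.73 (median 1.04) early and at 1.78 to 2.98 (median 2.61) late. It was thus above 0 on all 12 arrays, also at 0 h (mean 0.81), where both channels held untreated RNA. The groups were just apart. The rise was 1.45 ± 0.28 (adjusted p = 0.00164). Maff, a small Maf transcription factor gene, rose by 1.35 ± 0.30 (adjusted p = 0.00704), but its replicate 2 values, -0.14 at 2 h and 0.10 at 4 h, lay within the early range of -0.21 to 0.15. That call was lost without 4 h replicate 1 or 3 (adjusted p up to 0.0666). Ier2, an immediate early gene, rose by 1.30 ± 0.34 and the antiproliferative gene Btg2 by 1.06 ± 0.25, both with overlapping groups. The call for Ier2 was lost without any of 5 arrays (0.3 h replicates 1 and 2, 2 h replicate 1, 4 h replicates 1 and 3) and that for Btg2 without 2 h or 4 h replicate 1. A second Btg2 probe gave 0.51 ± 0.44 and was not called. Zfp36l1, whose protein destabilises AU-rich mRNAs, fell by 0.67 ± 0.16 on 1 probe (adjusted p = 0.0168), lost without 0 h replicate 1, 0.3 h replicate 3, 2 h replicate 1 or 4 h replicate 1 or 3, and its other probe changed by -0.54 without passing.

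Of 35 probes for actin, contractile and adhesion genes 3 rose, none fell and 29 had a change above 0, with a median of 0.26. Over all probes tested 1.41% rose, 51.1% had a change above 0 and the median was 0.01. Besides Rhob these were Csrp2, a LIM protein gene of smooth muscle (1.13 ± 0.23, adjusted p = 0.00263), and Itga5, the α subunit of the fibronectin receptor (0.90 ± 0.23, adjusted p = 0.0268, lost without 0 h replicate 2, 0.3 h replicate 1, 2 h replicate 1 or 4 h replicate 1 or 3). Matrix and protease genes gave 37 probes, of which Ccn1 alone was called and the median was 0.10. Cytokine and growth factor genes gave Hbegf and Wnt5a among 17 probes. The share called over all probes tested was 1.72%, so the matrix list was near it. Wnt5a, a ligand of non-canonical Wnt signalling, rose by 1.31 ± 0.26 (adjusted p = 0.00175), but from negative values: -2.06 to -0.26 on early arrays and -0.45 to 1.90 on late arrays. Only 2 h replicate 2, at 1.90, stood far above 0.

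Cell cycle genes gave 35 probes with a median of -0.02 and 1 call, against 1.72% called over all probes tested. Cdc25b, the phosphatase gene that promotes entry into mitosis, lay at -0.14 to 1.24 early and at -0.84 to -0.23 late, without overlap, and fell by 0.73 ± 0.18 (adjusted p = 0.018). The call was lost without 0 h replicate 2, the array at 1.24, or 4 h replicate 1 or 3 (adjusted p up to 0.128). None of 14 respiratory chain probes was called. Markers of epithelial (2 probes), leukocyte (8), endothelial (7) and fibroblast (9) identity gave 0 calls by limma, with medians of 0.27, -0.15, -0.29 and -0.17, and the 3 Id and BMP target probes gave none either.

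**Figure D2:**
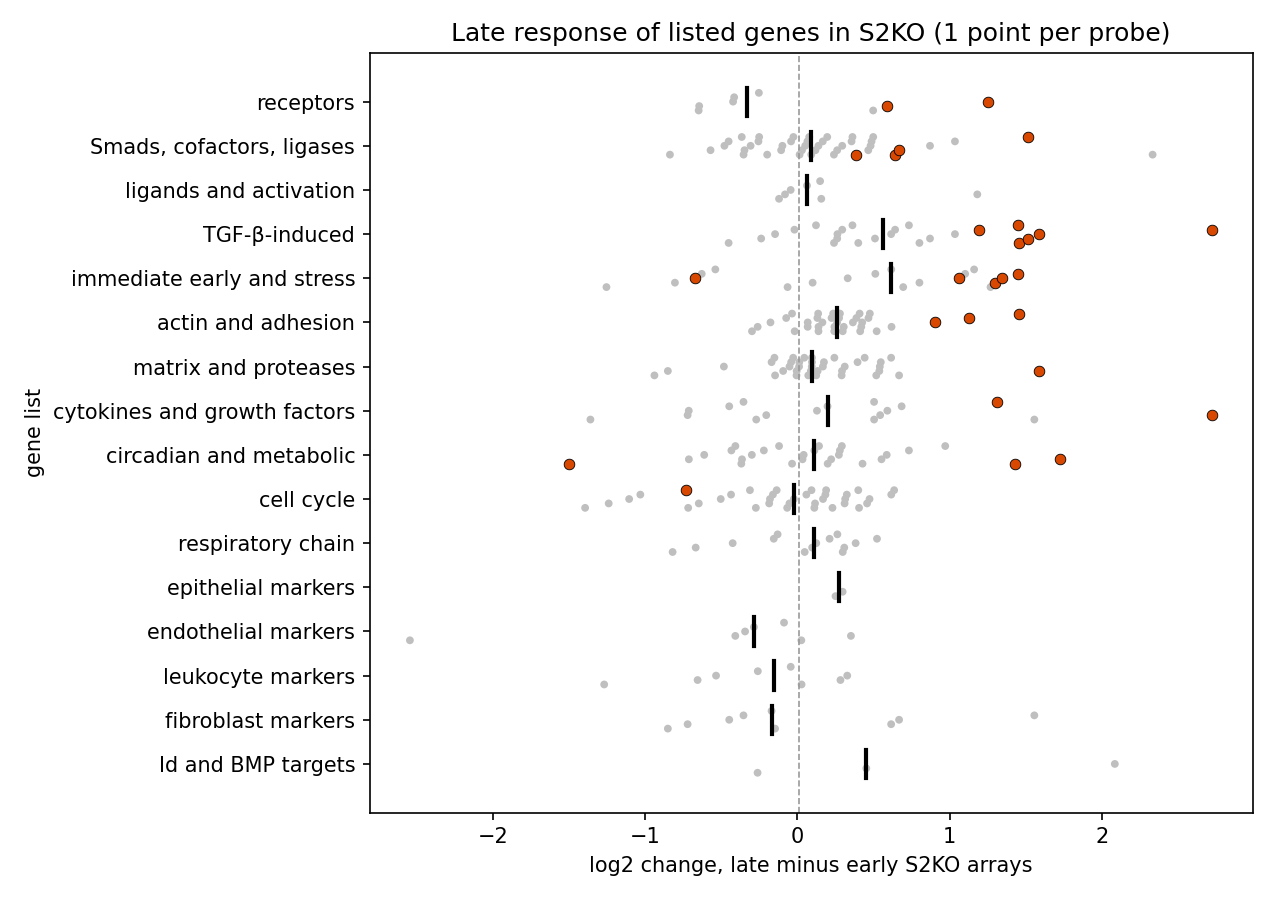
Log2 change, late minus early S2KO arrays (horizontal axis), of each tested probe in 16 gene lists (vertical axis). Orange points are called by limma, grey points are not, black bars are list medians and the dashed line is the median of all tested probes (0.01). The TGF-β-induced and the immediate early and stress lists have the highest medians, 0.56 and 0.62.

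Circadian and metabolic genes gave 2 rises and 1 fall among 27 probes, against 1.41% rising and 0.309% falling over all probes tested. Noct (nocturnin), a deadenylase-like gene with a daily rhythm, lay at -2.29 to 0.12 (median -0.12) early and at 0.47 to 1.89 (median 1.21) late and rose by 1.73 ± 0.27 (adjusted p = 5.84e-05). The groups did not overlap, and 0.3 h replicate 1 stood far below the other early arrays. Mgll, monoglyceride lipase, rose by 1.43 ± 0.26 (adjusted p = 0.000545), from -1.74 to 0.29 to between 0.06 and 1.92. Txnip, the inhibitor of thioredoxin and of glucose uptake, lay between -0.14 and 0.29 (median 0.11) on the early arrays and between -1.98 and -0.74 (median -1.46) on the late arrays. All 6 late arrays were below every early array, replicate 2 nearest to 0. It fell by 1.50 ± 0.21 (adjusted p = 2.65e-06), while its second probe changed by -0.41 ± 0.35 without passing. Noct and Txnip kept their calls without any single array.

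The largest other rises included genes outside these lists. Csdc2, an RNA-binding cold shock domain gene, lay at -0.31 to 0.66 (median 0.32) early and 1.00 to 2.90 (median 2.24) late and rose by 1.82 ± 0.25 (adjusted p = 2.65e-06), again with the lowest late values in replicate 2. Cacna1g, a T-type calcium channel gene (1.58 ± 0.32), and Gab2, a docking protein of receptor tyrosine kinases (1.47 ± 0.30), kept their calls without any single array, as did Csdc2. Against the 0 h arrays alone, however, Gab2 gave 0.86 and was not called (adjusted p = 0.375). Pdha1, a subunit of pyruvate dehydrogenase, rose by 1.55 ± 0.26 without overlap on 1 probe, but its other probe gave -0.21 ± 0.30. Papss2, which makes the sulphate donor PAPS, gave 2.03 ± 0.45 on the called probe and 0.77 ± 0.30, not called, on the other, and Hspa4, a chaperone gene, 1.61 ± 0.40 and -0.26 ± 0.70, its call lost without 0.3 h replicate 3, 2 h replicate 3 or 4 h replicate 1 or 3. For Tmem165, a Golgi ion transporter gene (2.52 ± 0.62), 2 h replicate 2 stood at 5.83 and the other late arrays at -0.38 to 1.79, and without that array the change was 1.54. The call was lost without it or 0 h replicate 1 (adjusted p up to 0.0846). Zfp672 rose by 1.53 ± 0.26 although its late arrays lay near 0 (-0.13 to 0.39) and its early arrays reached -3.85. Against the 0 h arrays alone its change was 0.70 (adjusted p = 0.422), and its late mean against 0 was 0.06 (adjusted p = 0.866), neither called.

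The largest falls were also the most scattered. St8sia2, a polysialyltransferase gene, changed by -2.83 ± 0.70, with 4 h replicates 2 and 3 at -3.67 and -6.08, while its 3 values at 2 h were -0.44, -0.31 and -0.58. Pecr, a peroxisomal reductase gene, changed by -2.56 ± 0.61 from early values of 0.41 to 3.33. Enpp4, an ectonucleotidase gene, changed by -2.46 ± 0.65, with 2 h replicate 1 at -5.72 and 0.3 h replicate 1 at 6.18. All 3 calls were lost when single arrays were left out (St8sia2 without 0 h replicate 2, Pecr without 0 h replicate 2 or 4 h replicate 1 or 3, Enpp4 without 0 h replicate 1 or 2 or any replicate 1 of the other times or 4 h replicate 3). For Enpp4 the change was -1.46 without 0.3 h replicate 1 and -1.37 against the 0 h arrays alone (adjusted p = 0.605). Smaller falls were more even: Snx33, a sorting nexin gene, lay at 0.05 to 0.23 early and at -1.42 to -0.40 late (-0.90 ± 0.25), Traf3ip2, an adaptor of IL-17 signalling, at 0.06 to 0.68 and -0.70 to 0.00 (-0.64 ± 0.15), and Cnppd1 at 0.25 to 0.57 and -0.76 to 0.19 (-0.65 ± 0.16). These 3 probes did not overlap between groups, but the second probes of Snx33 (-0.43), Traf3ip2 (-0.26) and Cnppd1 (-0.01) were not called. Snx33 (adjusted p = 0.0484) kept its call only when 2 h or 4 h replicate 2 was left out. Traf3ip2 lost its call without replicate 3 of either late time, and Cnppd1 without 4 h replicate 1 or 3. Osr1, a zinc-finger developmental regulator, fell by 1.73 ± 0.41 (lost without 2 h replicate 3, adjusted p = 0.0527), and Fam117a by 1.10 ± 0.25 (lost without 4 h replicate 3, adjusted p = 0.051). Of the 44 named called probes refitted in this way, 18 kept their call without any single array. Against the 0 h arrays alone 24 of the 44 lost it, and after scaling arrays to a common spread 28 did, Gadd45b, Snai1 and Smurf1 among them. Without any array of replicate 1, a setting chosen after seeing the data, 28 of the 38 that could be tested lost it.

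The early arrays and the late arrays were each compared among themselves. Between 0.3 h and 0 h, limma called 2 of 8493 probes (0.0235%), a probe with no symbol (5.12 higher at 0.3 h) and Ifnlr1, an interferon lambda receptor gene (-3.57 ± 0.65, lost without 0.3 h replicate 1). Leaving out 0.3 h replicates 1, 2 or 3 gave 1, 63 or 41 calls, and leaving out 0 h replicates 1, 2 or 3 gave 20, 15 or 9. Between 4 h and 2 h, 67 of 8445 probes were called (0.793%), 45 higher and 22 lower at 4 h. On the S2KO arrays alone that count was 3. Leaving out 4 h replicates 1, 2 or 3 gave 31, 146 or 29, and leaving out 2 h replicates 1 or 3 gave 118 or 198. Of the 114 late rises 61 were higher at 4 h than at 2 h. At 1 h, a time the choice of these probes did not use, 79 of the 114 rises had a mean above 0, against 48.7% of all probes. Of 24 falls 13 had a mean below 0, near the share of all probes, and their median was -0.01, as over all probes. These 1 h means had no baseline subtracted.

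Several of the genes that separated 2 h from 4 h had equal and opposite values, or a pulse, that the pooled late mean hides. Fam98a, a gene of an RNA-binding protein, lay at -0.56, -0.85 and -0.80 at 2 h and at 0.77, 0.47 and 0.85 at 4 h, a step of 1.43 ± 0.16 (adjusted p = 9.83e-08, limma), and its late minus early change was -0.01. Got1, cytosolic aspartate aminotransferase, likewise went from -0.66 to 0.49 in its means (step 1.15 ± 0.16). Atg16l2, an autophagy gene, went from 1.27 to -0.41 (step -1.69 ± 0.24). Pbk, a mitotic kinase gene, had neither pattern (step 2.43 ± 0.38). Its means at 0, 0.3, 1, 2 and 4 h were -0.97, -2.62, -1.94, -2.55 (on 2 arrays) and -0.12, so it was low before 2 h as well. The second Pbk probe did not share these low values, with means of 0.10, 0.12, -0.57, -0.14 and 0.31. Cxxc5, a CXXC zinc-finger gene, formed a pulse: its means at 0, 0.3, 1, 2 and 4 h were 0.56, 0.38, 1.15, 2.17 and 0.46, a step of -1.71 ± 0.27 (adjusted p = 0.000133) matched by -1.65 ± 0.31 on its second probe. The 2 h arrays of Cxxc5 lay at 2.08, 2.13 and 2.29, and the 4 h arrays, at 0.27 to 0.83, were back in or near the early range. Arid5b, an AT-rich DNA-binding protein gene, was low mainly at 2 h, with means of -0.21, -1.21 and -0.09 at 1, 2 and 4 h (step 1.12 ± 0.20, adjusted p = 0.00192). Of these 6 steps 5 kept their calls without any single array, and Pbk did in the 4 fits that could be made, while on the S2KO arrays alone Fam98a and Cxxc5 were still called (adjusted p = 0.0382 each). Bhlhe40 was higher at 4 h by 1.34 ± 0.34 (adjusted p = 0.0418), lost without 2 h replicate 2 or 4 h replicate 1 or 3. With the replicate number as a block, the pairing of 2 h and 4 h arrays gave Bhlhe40 an adjusted p of 0.0514, so that it was not called.

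**Figure D3:**
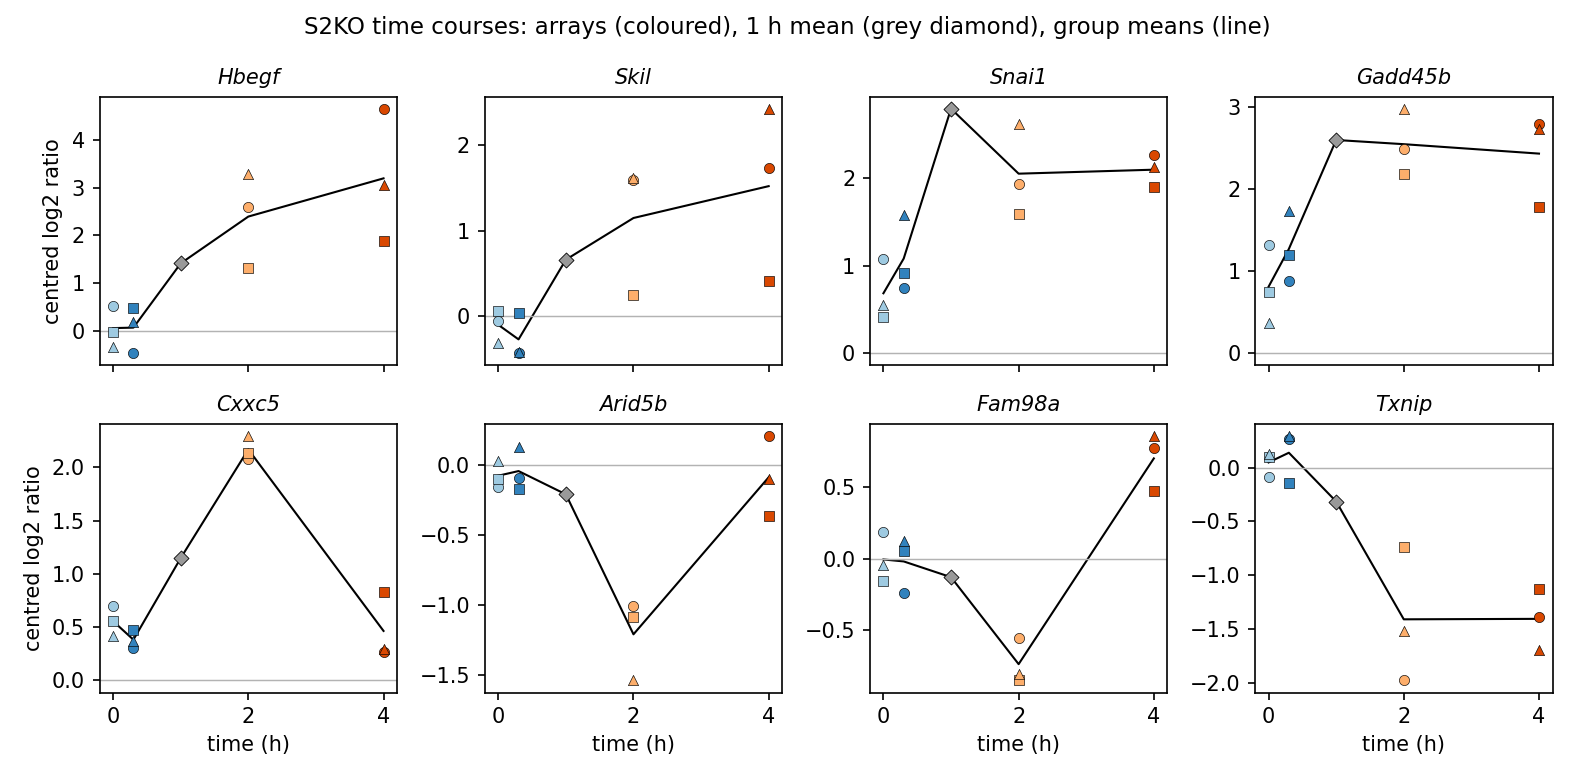
Centred log2 ratio (vertical axis) against time in h (horizontal axis) for 8 genes in S2KO. Coloured points are the arrays at 0, 0.3, 2 and 4 h (circle, square and triangle for replicates 1, 2 and 3), the grey diamond is the mean at 1 h and the line joins group means. Hbegf and Skil climb to 4 h, and Cxxc5, Arid5b and Fam98a turn between 2 h and 4 h. Snai1 and Gadd45b have their highest means at 1 h (2.79 and 2.60). At 4 h these means are 2.10 and 2.43.

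The steps of these genes in other lines were in part alike. For Cxxc5 the 2 h and 4 h means were 1.28 and 0.29 in S2WT, 1.15 and 0.55 in S3WT, 1.37 and 0.29 in the U0126 arrays and 0.77 and 0.34 in S3KO, none of them called. Fam98a gave steps of 0.63 in S2WT, 0.67 in S3WT, 0.37 in U0126 and 0.00 in S3KO, and Got1 steps of 0.02 to 0.27 in the other 4 lines. The differences between lines in these steps were not tested.

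The comparison with S2WT sets the line named for the loss of Smad2 against its wild-type counterpart, and the lines share no array. Each genotype was given by a single line, so the loss of Smad2 cannot be told apart from other differences between the lines. In limma's test of the difference 0 of 7628 probes were called (0%), with 655 at an unadjusted p under 0.05 and a smallest adjusted p of 0.0533. Fitted on the arrays of both lines alone it was also 0, with a replicate block 5, with uncentred arrays 9 and without single arrays 0 to 29, the highest without S2KO 4 h replicate 2. Uncentred, the median difference of all probes was 0.25. Of the 114 S2KO rises 89 had a change above 0 in S2WT, against 53.0% of all probes, and 10 were called there. Of the 25 falls 17 were below 0 and 3 were called. Over all 8198 probes tested in S2WT, 17 rose and 8 fell. The calls of both lines use the same spread per probe, so they are not independent. Among the probes called in both were those of Hbegf (1.99 ± 0.32 in S2WT), Csdc2 (1.27 ± 0.25), Txnip (-0.98 ± 0.21) and Arid5b (-1.23 ± 0.15). Skil changed by 0.43 ± 0.21 in S2WT, Rhob by 0.20 ± 0.31, Tgfbr1 by 0.05 ± 0.24, Maff by 0.00 ± 0.30 and Wnt5a by -0.17 ± 0.26, none called, and the differences from S2KO were 1.08 ± 0.29, 1.26 ± 0.43, 1.21 ± 0.35, 1.35 ± 0.42 and 1.48 ± 0.37, with adjusted p of 0.29, 0.404, 0.312, 0.368 and 0.171. These differences did not pass, which does not show that the lines respond alike. By a field of their labels other than the title, the S2WT 4 h arrays are 2 h arrays, and the title was followed.

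The comparison with S3KO sets the line named for the loss of one receptor-activated Smad against that named for the other. Again, genotype cannot be told apart from line. Here limma called 7 of 7527 probes (0.093%), all with a higher late response in S2KO. Csdc2 changed by -0.07 ± 0.25 in S3KO, a difference of 1.89 ± 0.35 (adjusted p = 0.0139). Hbegf changed by 0.43 ± 0.32 there, a difference of 2.29 ± 0.46 (adjusted p = 0.0142), lost without S2KO 4 h replicate 1 (adjusted p = 0.0676). Skil changed by 0.18 ± 0.21, a difference of 1.34 ± 0.29 (adjusted p = 0.037) that was called in 8 of 24 fits without an array, and Wnt5a by -0.32 ± 0.26, a difference of 1.63 ± 0.37 (adjusted p = 0.0499) called in 7 of 24 and lost with a replicate block (adjusted p = 0.073). For Wnt5a the lines differed more on the early arrays than on the late ones. Its 0 h and 0.3 h means were -1.21 and -1.01 in S2KO and 0.63 and -0.28 in S3KO. The 2 h and 4 h means were 0.39 and 0.02 in S2KO and -0.06 and -0.24 in S3KO. The other 3 probes have no gene name or a clone name. On the arrays of both lines alone 0 were called, and 0 after scaling arrays to a common spread, while single arrays moved the count from 2 to 64, the lowest without S2KO 4 h replicate 1 and the highest without S2KO 4 h replicate 2. It was also 4, 3 or 4 without S2KO 4 h replicate 3, S3KO 0.3 h replicate 2 or S3KO 2 h replicate 2, and 15, 18, 23 and 12 without S2KO 0.3 h replicate 2, S2KO 2 h replicate 2, S3KO 0 h replicate 3 and S3KO 2 h replicate 3. At 0.3 h a label of the S3KO arrays names no TGF-β for both channels, so its early baseline may be untreated throughout.

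S3KO itself had 0 called probes in its own late response (549 at an unadjusted p under 0.05), S2WT 25, S3WT 4 and the U0126 arrays 53. Of the S2KO rises, 79 of 113 tested in S3KO had a change above 0 with a median of 0.08, against a median of 0.22 in S2WT, 0.25 in S3WT (96 of 113) and 0.14 in U0126 (78 of 114). Over all probes tested, 50.3% were above 0 in S3KO, 50.1% in S3WT and 52.2% in U0126. Txnip changed by -1.34 ± 0.21 in the U0126 arrays (called), by -0.32 ± 0.21 in S3KO and by -0.17 ± 0.21 in S3WT. Smurf1 changed by 0.58, 0.57, 0.38 and 0.23 in S2WT, S3WT, U0126 and S3KO, none called, against 0.64 in S2KO.

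**Figure D4:**
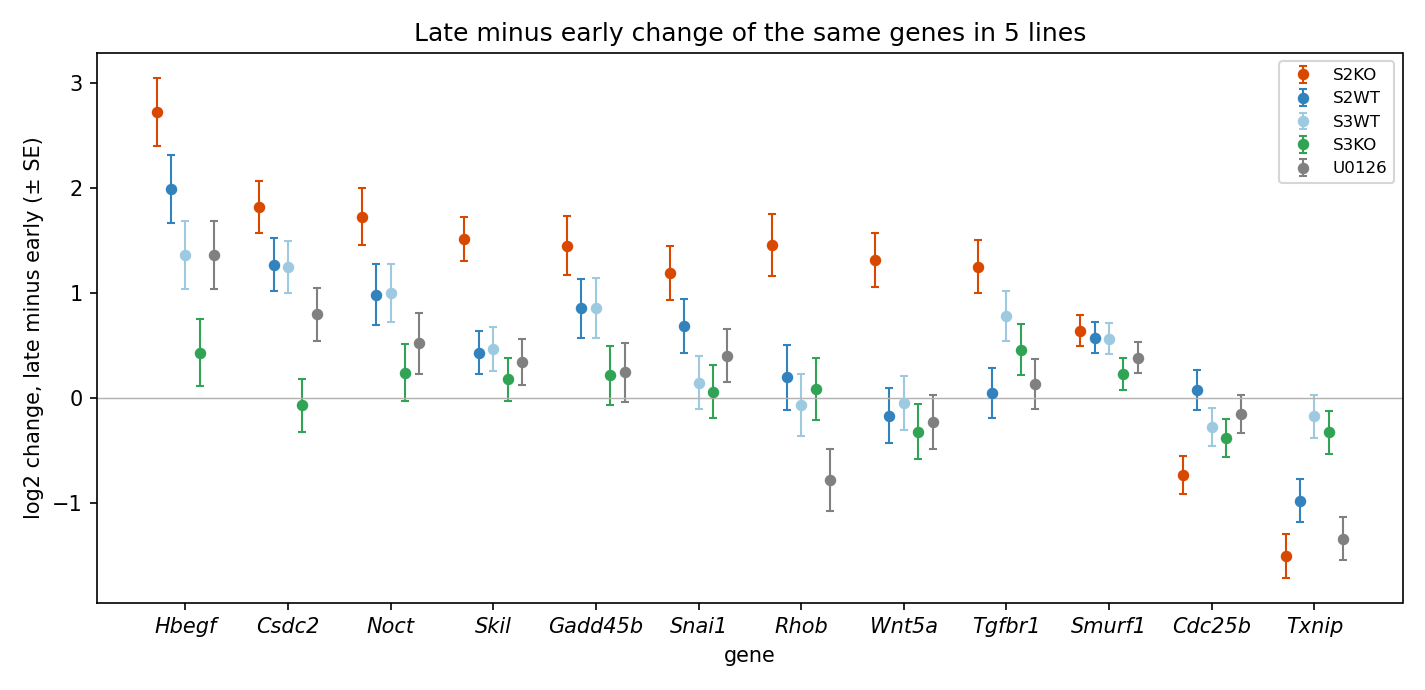
Log2 change, late minus early (vertical axis, ± SE of the limma fit), of 12 genes (horizontal axis) in the 5 lines. Hbegf, Csdc2 and Txnip also changed in S2WT, while S3KO values lie between -0.38 and 0.46, and the difference from S3KO was called for Hbegf, Csdc2, Skil and Wnt5a.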

How the data were processed

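RNA was measured on dual-channel mouse arrays. The authors deposited 1 log2 ratio per probe and array; how they scanned and normalised the arrays is not stated in the labels. Values at the log2 of a ratio of 1e+05 (1344 in the series) were set to missing, and each array was centred on its median. Samples were grouped by line and time from their titles. Group means were fitted to all 74 arrays in 25 groups with limma 3.58.1 in R 4.3.3 (lmFit, eBayes). Testing needed a value on at least 2 arrays in every group compared. Adjustment was by Benjamini-Hochberg over all tested probes (threshold 0.05). The procedure was tested on simulated data.

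In the platform annotation 7348 probes have 1 symbol (7274 matched RefSeq genes), 399 have several and 1229 have none. Of the called probes, 26 have no single symbol and 2 a clone name. Genes were named by rule: the 15 largest rises and falls measured on at least 5 arrays a side with every late array beyond the early mean, called list members, fixed pathway genes, and up to 6 smallest p of the other comparisons. The members, the 16 lists and the rule were chosen with earlier results of these data known. Promoters came from RefSeq, matched by gene ID.

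Alternatives were other baselines, centring, scaling, array weights, filters, a replicate block, fits on fewer arrays and leaving out each array. Deviations of same-numbered arrays correlated at -0.06 to 0.24 (median 0.06, 18 pairs), so in general the numbers were taken only as names. At 2 h and 4 h the 3 pairs correlated at 0.16 to 0.23, a pairing read from the data. The main fits did not use it and took these arrays as independent, for the late response and for the step. With the replicate number as a block, the step from 2 to 4 h had 85 calls. Values given above for that step are from the fit without a block unless a block is named.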

Additional observations from a re-analysis of the deposited data

Results flagged for a closer look

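Of 140 sets of 4 to 6 arrays (named probes, early or late), 14 held an array far from the others by Dixon's test, where chance gives about 1 in 20 (5%). Among rises these were Tmem165 at 5.83 and Wnt5a at 1.90 (both late, 2 h replicate 2), Rac2 at 4.28 (late, 2 h replicate 3), Noct at -2.29 (early, 0.3 h replicate 1), Cacna1g at -2.03 (early, 0 h replicate 1) and Gab2 at -2.76 (early, 0.3 h replicate 3). Among falls they were Cdc25b at 1.24 (early, 0 h replicate 2), Hspb6 at -2.08 (late, 2 h replicate 2), and Enpp4 at -5.72 (late, 2 h replicate 1) and 6.18 (early, 0.3 h replicate 1). Among probes that were not called they were a Smurf2 probe at -0.78 (late, 4 h replicate 2) and -1.37 (early, 0 h replicate 1), Tgif1 at 1.46 (early, 0 h replicate 2) and Smad4 at 1.02 (early, 0.3 h replicate 1). These are log2 ratios.

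The late response was higher in S2KO than in S3KO, by limma's test of the difference, for Csdc2 (1.89), Hbegf (2.29), Skil (1.34), Wnt5a (1.63), the clone-named 4933431E20Rik (2.89) and 2 probes with no gene symbol, 1546 (1.86) and 7737 (1.22). For Wnt5a the lines differed more on the early arrays than on the late ones.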

How the results depend on the processing

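The late response, 139 calls as reported, gave 0 on the 12 S2KO arrays as 4 groups or as 2 groups of 6, 67 against the 0 h arrays alone, 1825 as late arrays against 0 without a baseline, 32 after scaling (30 higher, 2 lower), 228 with array weights and 27 without any array of replicate 1 (chosen after seeing the data). Leaving out single arrays gave 59 to 288. Uncentred arrays gave 122 (113 higher, 9 lower), and the count was also within 1.5 times with probes measured on all 12 arrays (125), capped values kept (140), probes averaged per gene (101) and a background covariate (146, chosen after seeing the data). For the step from 0 to 0.3 h, 2 calls became 0 on S2KO arrays alone, 1 after scaling and 1 to 63 without single arrays. For the step from 2 to 4 h, 67 became 3 on S2KO arrays alone, 33 uncentred, 5 after scaling and 29 to 198. For the difference from S2WT, 0 became 9 uncentred and 0 to 29 without single arrays, and was 0 after scaling. For the difference from S3KO, 7 became 0 on both lines alone, 16 uncentred, 0 after scaling and 2 to 64. With the replicate number as a block the counts were 182 for the late response (131 of the 139 among them), 6 for the early step, 85 for the late step, 5 for S2WT and 8 for S3KO. Signs turned for 3 uncalled probes: Smurf2 (-0.30 with late arrays against 0), Tgif1 (-0.072 against 0 h alone) and Smad3 (0.12 with array weights, -0.41 to 0.13 without single arrays). No called named probe changed sign under any of these. The cause was not tested. Signal over background is unknown, so dim probes could not be set apart.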
